A study of Mus musculus with 8 samples.

Results

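Mouse embryonic stem cells that had lost the enhancer E3 (E3-KO) were compared with cells that had lost the enhancer E2 (E2-KO). Both groups were taken by their titles, which gave 4 samples of the 8 in the series, 2 of each line. All 4 carried the E14TG2a background of strain 129/Ola, had been edited with CRISPR/Cas9, and were grown at passages 3 to 6 on gelatin without feeder cells. The medium of every group held LIF, a cytokine that sustains self-renewal, CHIR99021, an inhibitor of the kinase GSK3, and PD0325901, an inhibitor of the kinase MEK. The other 4 samples were unedited cells (WT) and cells that had lost the enhancer E1 (E1-KO), 2 of each, and they entered the fit and are given here as levels for reference. Where the enhancers lie, how much was deleted and whether a line is 1 clone is not given in the labels. Difference of clone, culture or library and difference of deleted enhancer therefore cannot be told apart in any result below. The samples of a group are called biological duplicates in the labels, which do not say how they were separated. The p-values rest on the spread between such duplicates in all 4 groups, combined with an estimate shared across genes.

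Enhancers are stretches of DNA, often far from a promoter, that bind transcription factors and raise transcription of their target gene. The series asked how contacts between such elements and a promoter bear on the roles of Sox2, which encodes an HMG-box transcription factor that works with OCT4 to hold embryonic stem cells in a pluripotent state. Inhibition of GSK3 stabilises beta-catenin, and inhibition of MEK lowers signalling through ERK, the kinase downstream of FGF receptors. Cells kept this way sit close to the naive state of the early epiblast.

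Levels are given as FPKM, a fragment count divided by the length of the transcript and the number of mapped fragments. Differences are log2 fold changes, E3-KO minus E2-KO, on log2(FPKM + 1), a scale that understates the change of low genes. A gene was called at a limma-trend adjusted p under 0.05 (Benjamini-Hochberg over the 11274 genes that averaged 1 FPKM or more). Summed FPKM lay between 454974 and 532007 over the 8 samples, with both ends of that range in the 4 samples compared. Over the tested genes, log2(FPKM + 1) correlated at 0.985 within each line and at 0.969 to 0.972 between the lines, where genes are not independent replicates. The 10 embryonic stem cell markers summed to 2421 and 2191 FPKM in E2-KO and to 1965 and 1822 FPKM in E3-KO, and none was at 0. The 15 fibroblast and feeder markers summed to 8.73 and 10.5 FPKM in E2-KO and to 11.3 and 10.2 FPKM in E3-KO, with the collagen genes Col1a2 and Col3a1 at 0 in both E2-KO samples and at 0.101 FPKM or less in E3-KO. Of these 15, both E3-KO samples were above both E2-KO samples for 4 (Col3a1, Col5a1, Thy1 and, on chromosome 6, Col1a2). They were below for 3 (Acta2, Col1a1 and Fbn1). Of these 3, Col1a1 measured 0.981 and 0.986 FPKM in E2-KO against 0.902 and 0.424 FPKM in E3-KO. Of the 10 embryonic stem cell markers, both E3-KO samples were below for 5 (Esrrb, Lin28a, Nanog, Tdgf1 and Zfp42) and above for 1 (Sall4). The samples of the other 4 overlapped. Nanog lies on chromosome 6, whose genes were mostly lower in E3-KO, and it is part of these counts and of the sums above. How many of all genes were ordered either way was not counted, so these counts cannot be read as a result about the markers.

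Sox2 did not separate the lines. The gene (ENSMUSG00000074637, on chromosome 3) stood at 114 and 97.5 FPKM in the E2-KO samples and at 97.7 and 90.96 FPKM in the E3-KO samples. The higher E3-KO sample lay just above the lower E2-KO sample, so the groups overlapped. The difference was -0.16 (SE 0.104, limma-trend adjusted p = 0.332), with a 95% interval from -0.39 to 0.08, which leaves room for a modest difference. For reference, WT held 131 and 136 FPKM and E1-KO a mean of 59.2 FPKM. Of the other SOX genes tested, Sox15 was higher in E3-KO (0.74) and Sox4 lower (-1.06), and neither call held with every replicate left out in turn. Among the 19 tested genes that flank Sox2 on chromosome 3, Acad9, which encodes a mitochondrial protein needed to assemble respiratory complex I, was higher in E3-KO. It measured 22.3 and 22.6 FPKM in E2-KO against 34.5 and 33.9 FPKM in E3-KO (0.59, SE 0.094, adjusted p = 0.00491). The other 18 flanking genes were not called, which put 5.26% of the list higher, against 5.64% of all tested genes outside chromosome 6. Their list had a median difference of -0.06.

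Outside chromosome 6, 1409 of 10582 tested genes were called (13.3%), 597 higher in E3-KO (5.64%) and 812 lower (7.67%). The balance of the directions depended on how samples were scaled. The median difference of these genes was -0.08 as deposited and 0.03 when each sample was scaled to its total without the 50 highest genes, which turned the split to 878 higher (8.3%) and 435 lower (4.11%). After quantile normalization 816 were higher (7.71%) and 551 lower (5.21%), and after median-ratio scaling 795 (7.51%) and 591 (5.58%). A correction for transcript length and GC content gave 837 (7.91%) and 569 (5.38%). The count also rested on single libraries. It was 731 without E2-KO replicate 1 (3.31% higher, 3.6% lower) and 794 without E3-KO replicate 2 (3.87% and 3.64%), against 1253 without E2-KO replicate 2 (4.86% and 6.98%) and 1248 without E3-KO replicate 1 (4.16% and 7.64%). With the 4 samples fitted alone it was 485 (2.5% and 2.08%), and with all genes above 0 tested, 16322 in number, it was 1130 (3.6% and 3.33%). Of the 1409, 221 had a difference of at least 1 on the log2 scale, 128 higher (1.21%) and 93 lower (0.879%). Of 156 tested genes with no position in the annotation, 23 were called, and they are left aside below.

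The gene with the largest difference was Serpina3n (ENSMUSG00000021091, chromosome 12), a secreted inhibitor of serine proteases. It measured 3.904 and 5.802 FPKM in E2-KO against 34.9 and 34.8 FPKM in E3-KO, 7.18-fold higher by the means. Both E3-KO samples lay far above all 6 others, since WT had a mean of 3.19 FPKM and E1-KO of 1.12 FPKM (2.63, SE 0.197, adjusted p = 0.000479). Its neighbour Serpina3k followed, with 0.539 and 0.939 FPKM in E2-KO against 6.33 and 6.54 FPKM in E3-KO (2.11). Members of this family are alike in sequence, and reads shared between them could have been split either way by the authors' counting. C130073F10Rik, a predicted protein-coding gene on chromosome 4, stood at 14.4 and 23.7 FPKM in E2-KO against 113 and 86.8 FPKM in E3-KO (2.36). The next gene in the row order, Gm12790, was named after its values were seen and also differed, from 1.497 and 2.96 to 10.96 and 8.72 FPKM (1.78).

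The rest of the 12 highest had varied functions. Cd200, a membrane glycoprotein that signals to immune cells through its receptor, measured 2.59 and 2.25 FPKM in E2-KO against 13.2 and 15.7 FPKM in E3-KO (2.17, SE 0.193, adjusted p = 0.000709), with WT at a mean of 2.36 FPKM. Ckmt1, the mitochondrial creatine kinase, measured 12.8 and 17.1 FPKM against 62.95 and 51.5 FPKM (1.88). Fbp2, the fructose bisphosphatase of muscle, measured 3.42 and 4.101 FPKM against 22.2 and 12.8 FPKM (1.91). For each of these 3 genes both E3-KO samples were above all 6 other samples. Genes otherwise known from germ cells were also present: Tex101, a surface protein of germ cells, had 1.83 and 2.38 FPKM in E2-KO against 18.4 and 6.86 FPKM in E3-KO (2.00), and Spa17, a sperm protein, had 0.866 and 0.394 and 6.76 and 3.43 FPKM (1.86). The E3-KO samples lay far apart for both genes, and each was above both E2-KO samples, as the naming rule required. Trim43c (1.94) and AA467197 (1.90) were near 1 FPKM or below in E2-KO, and Trim43c has close copies. Gm10800 had 69.9 and 19.7 FPKM in E2-KO against 157 and 138 FPKM in E3-KO (1.95). It is a predicted gene whose sequence resembles others, its E2-KO samples lay far apart, and its call was lost in 6 alternatives, among them the fits without E3-KO replicate 1 or replicate 2.

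The largest differences in the other direction included genes of the actin and signalling machinery. Myl9, a regulatory light chain of smooth muscle and non-muscle myosin, measured 10.3 and 11.98 FPKM in E2-KO against 2.69 and 1.66 FPKM in E3-KO, 5.12-fold lower by the means (-1.95, SE 0.353, adjusted p = 0.00818). WT lay with E3-KO at a mean of 2.04 FPKM, and E1-KO lay above both lines at 23.7 FPKM. The groups did not overlap, which the naming rule required of each gene here. Arhgef25 (-1.65) and Arhgef38 (-1.64), exchange factors that activate small GTPases, fell from 7.75 and 8.18 to 1.68 and 2.04 FPKM and from 5.85 and 6.43 to 1.37 and 1.2 FPKM. Slc11a1, a transporter of divalent metals, stood at 7.83 and 9.85 FPKM in E2-KO and at 1.71 and 1.85 FPKM in E3-KO (-1.82, SE 0.136, adjusted p = 0.000479). For these 3 genes WT and E1-KO means were between 4.01 and 10.8 FPKM, so the E3-KO samples were the low ones. The same held for Evc2, a protein of the primary cilium that takes part in Hedgehog signalling, which had 8.39 and 5.58 FPKM in E2-KO against 1.13 and 1.79 FPKM in E3-KO, with a mean of 4.37 FPKM in WT (-1.69). Smarcd3, a subunit of the SWI/SNF chromatin remodeller, measured 9.696 and 8.05 and 1.67 and 2.64 FPKM (-1.66). Plxdc1 (-1.80), Pimreg (-1.70), Bhmt, which remethylates homocysteine (-1.63), the keratin gene Krt42 (-1.61) and the secreted binding protein Igfbp7 (-1.60) completed the set with Hist1h4k, described with the histones. Among these 24 genes, the calls of Gm10800 and Myl9 were the ones lost in any alternative, that of Myl9 in 1, the fit without E3-KO replicate 2.

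**Figure D1:**
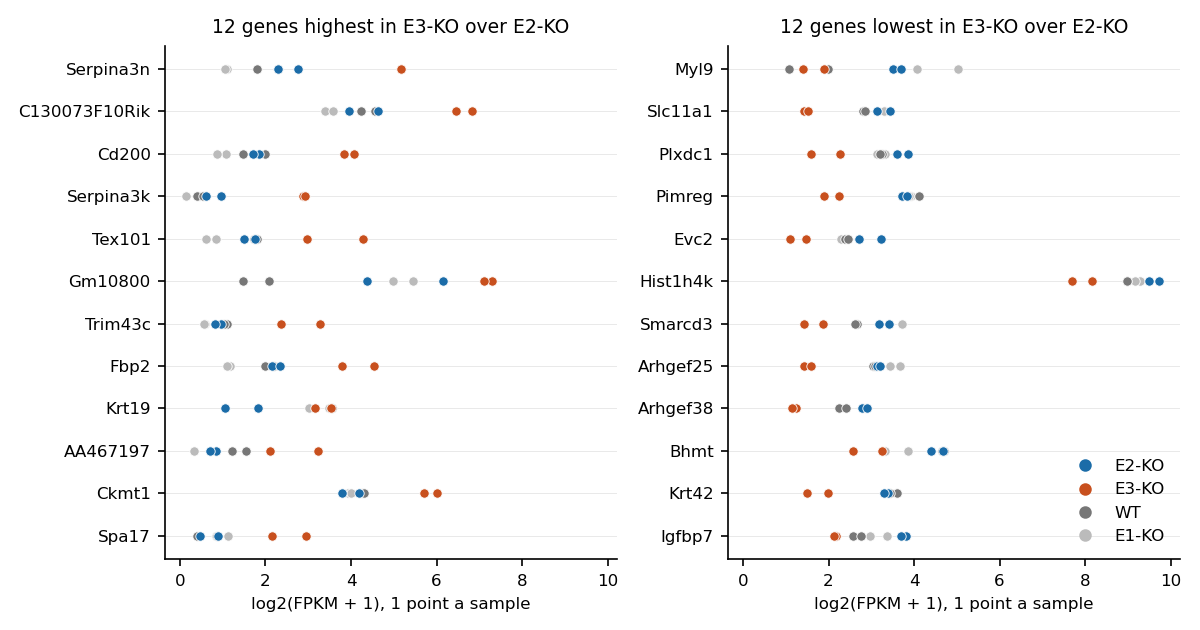
Level of the 12 genes highest and the 12 genes lowest in E3-KO relative to E2-KO outside chromosome 6, as log2(FPKM + 1) on the horizontal axis with 1 point per sample. E3-KO points lie apart from both E2-KO points in every row because the rule that picked these genes required it. For Krt19 and Myl9 the WT points lie with E3-KO.

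One pattern among gene lists was in targets of p53, the transcription factor that responds to DNA damage and other stress. Of 27 tested p53 targets outside chromosome 6, 13 were higher in E3-KO (48.1%, against 5.64% of all genes there), none was lower (0 also at an unadjusted p under 0.05), and the median difference was 0.42 against -0.08 for all genes. Perp, a desmosomal membrane protein that takes part in apoptosis, measured 7.097 and 7.801 FPKM in E2-KO against 31.8 and 18.3 FPKM in E3-KO (1.58, SE 0.223, adjusted p = 0.00284). The kinase gene Plk2 measured 8.48 and 9.95 and 29.4 and 23.3 FPKM (1.42, SE 0.160, adjusted p = 0.00134). Neither gene's groups overlapped, and WT lay between the lines at means of 11.2 and 18 FPKM. Pmaip1, which encodes the BH3-only protein NOXA, measured 4.03 and 5.94 FPKM in E2-KO against 14.3 and 12.7 FPKM in E3-KO (1.30), with WT at a mean of 12.96 FPKM and E1-KO at 4.21 FPKM. Mdm2, the ubiquitin ligase that degrades p53, measured 54.4 and 50.7 FPKM in E2-KO against 85.9 and 89.7 FPKM in E3-KO (0.73, SE 0.094, adjusted p = 0.00199). For Mdm2 the E3-KO samples were also above both WT samples, which had a mean of 53.5 FPKM, while for Pmaip1 E3-KO and WT stood close together and E2-KO was low.

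The other 9 called targets had differences between 0.48 and 0.64. They included the cell cycle inhibitor Cdkn1a (42.2 and 53.8 FPKM in E2-KO against 82.1 and 62.3 FPKM in E3-KO, 0.58) and the stress sensor Sesn2 (27.6 and 26.1 and 40.4 and 41.5 FPKM, 0.59). The remaining 7 were Bbc3, which encodes the BH3-only protein PUMA, Gdf15, Polk, Ccng1, Sesn1, Trp53inp1 and Trp73. WT did not hold a fixed place among them: Cdkn1a had a WT mean of 124 FPKM, above both lines, and Sesn2 of 34.3 FPKM, between them. Trp53 itself was not called, at 175 and 179.9 FPKM in E2-KO against 187 and 165 FPKM in E3-KO (-0.01, 95% interval -0.23 to 0.21). Bax, another target, was at 150.4 and 139 and 142 and 116 FPKM (-0.17), and Zmat3 at 13.8 and 17.8 and 16.3 and 17.97 FPKM (0.12). The 2 targets on chromosome 6, Xpc and Tigar, were called lower, as most genes of that chromosome were. The count of 13 depended on single libraries and on the fit: it was 5 without E2-KO replicate 1, 8 without E2-KO replicate 2, 7 without E3-KO replicate 1, 15 without E3-KO replicate 2, 7 with all genes above 0, and 6 with the 4 samples fitted alone. No target was called lower in any of these, and the 3 other scalings and the correction for length and GC content each gave 15 higher.

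Genes of sterol and fatty acid synthesis went the other way. Of 30 tested genes, none of them on chromosome 6, 13 were lower in E3-KO (43.3%, against 7.67% of all genes) and 1 was higher, with a median difference of -0.44. The pathway builds cholesterol from acetyl-CoA through mevalonate, squalene and lanosterol, and SREBP2, encoded by Srebf2, drives its genes when sterols are scarce. Since 13 members were lower, the 250 bases upstream of the start of the 3 genes with the largest differences are shown. The sequences are those of RefSeq on GRCm38.p6, 5′ to 3′ on the strand of the gene, and capitals mark CCAAT or its reverse complement ATTGG.
Cyp51, chr5:4104698-4104947, minus strand: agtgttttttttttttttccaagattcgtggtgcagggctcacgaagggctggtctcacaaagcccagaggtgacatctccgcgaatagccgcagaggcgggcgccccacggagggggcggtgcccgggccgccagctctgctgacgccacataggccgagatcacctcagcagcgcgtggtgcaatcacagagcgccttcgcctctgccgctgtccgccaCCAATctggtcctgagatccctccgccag
Insig1, chr5:28071162-28071411, plus strand: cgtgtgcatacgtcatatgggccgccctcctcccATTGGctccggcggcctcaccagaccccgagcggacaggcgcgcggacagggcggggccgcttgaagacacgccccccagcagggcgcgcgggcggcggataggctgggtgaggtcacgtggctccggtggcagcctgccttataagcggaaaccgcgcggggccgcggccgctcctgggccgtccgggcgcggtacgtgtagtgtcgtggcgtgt
Idi1, chr13:8885356-8885605, plus strand: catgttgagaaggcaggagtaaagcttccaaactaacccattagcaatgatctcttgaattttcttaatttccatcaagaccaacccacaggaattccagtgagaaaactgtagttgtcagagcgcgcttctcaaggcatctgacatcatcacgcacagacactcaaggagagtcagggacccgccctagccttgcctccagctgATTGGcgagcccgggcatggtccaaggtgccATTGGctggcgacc
CCAAT, the letters that the factor NF-Y is known to bind, was searched on both strands. It occurred in this window of 16 of the 20 tested members with a promoter in the table (80%), against 41.1% of 8324 tested genes and 37.5% of all 27025 promoters. Of the 13 called lower, 9 had a promoter in the table, and all 9 held it. The 16 also included Me1, the 1 member called higher, and members that were not called. The sterol element letters TCACNCCAC occurred in 0 of the 20 and in 1.2% of the tested genes. A match is a run of letters, not a shown binding site.

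By order in the pathway, the isoprenoid steps came first. Idi1, which isomerises isopentenyl diphosphate, measured 10.7 and 10.6 FPKM in E2-KO against 5.08 and 5.25 FPKM in E3-KO (-0.92, SE 0.111, adjusted p = 0.00162). The 2 lines were each tight for Idi1, and WT lay with E3-KO at a mean of 5.395 FPKM. Cyp51, the lanosterol demethylase, measured 24.6 and 25.5 FPKM in E2-KO against 11.6 and 10.4 FPKM in E3-KO (-1.12, SE 0.113, adjusted p = 0.000877), and both WT samples were above E3-KO, with a mean of 21.5 FPKM. Msmo1, the sterol methyl oxidase of the next steps, measured 68.2 and 93.9 FPKM against 43.1 and 46.5 FPKM (-0.82). Insig1, the membrane protein that holds SREBP in the endoplasmic reticulum and is itself a target of SREBP, measured 23.5 and 26.9 FPKM in E2-KO against 13.3 and 12.4 FPKM in E3-KO (-0.92, SE 0.122, adjusted p = 0.00223). None of these called genes had overlapping samples.

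The others called lower included Nsdhl, Dhcr7, Fdps, Fdft1, Sc5d, Fasn, Srebf2 and Sqle, with differences between -0.35 and -0.77. Me1, the cytosolic malic enzyme that supplies NADPH, was the 1 called higher, at 23.6 and 25.2 FPKM in E2-KO against 34.4 and 32.1 FPKM in E3-KO (0.43). Of uncalled members, Scd1, the fatty acid desaturase, had 34.4 and 44.1 and 39.3 and 48.97 FPKM (0.17). Leaving out a replicate gave 10 to 13 lower, and scaling without the 50 highest genes gave 9. With the 4 samples fitted alone 6 were called lower.

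**Figure D2:**
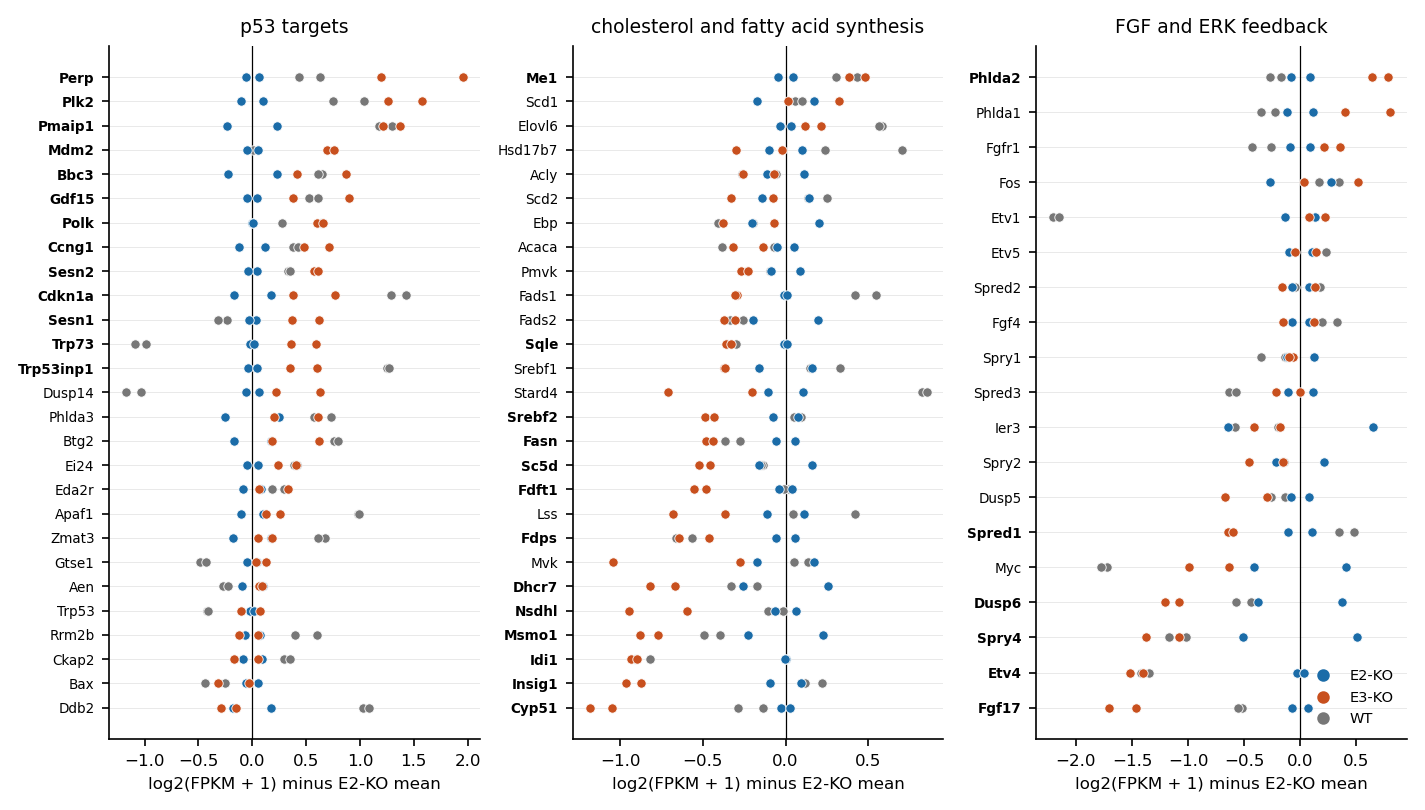
Tested members outside chromosome 6 of 3 gene lists, except those not reported here, with each sample's log2(FPKM + 1) minus the E2-KO mean on the horizontal axis and called genes in bold. E3-KO points lie to the right of E2-KO for 13 called p53 targets, to the left for the genes of cholesterol and fatty acid synthesis called lower, and to the left for 5 of the 6 called genes of the FGF list, while WT points fall on either side.

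Genes of FGF signalling through ERK, which the MEK inhibitor in the medium acts upon, included 4 that were lower by more than 1 on the log2 scale. The list had 19 tested members, of which 5 were lower in E3-KO (26.3%, against 7.67% of all genes) and 1 was higher (5.26%, against 5.64%), and its median of -0.11 was close to the -0.08 of all genes. Among ligands, Fgf17 measured 2.37 and 2.72 FPKM in E2-KO against 0.279 and 0.0865 FPKM in E3-KO (-1.59, SE 0.152, adjusted p = 0.000796), whereas Fgf4, the main FGF of embryonic stem cells, was not called at 51.4 and 57.2 and 59.1 and 48.6 FPKM (-0.02, 95% interval -0.29 to 0.25). Etv4, an ETS transcription factor induced by FGF, measured 111 and 116 FPKM in E2-KO against 42.2 and 38.8 FPKM in E3-KO (-1.46, SE 0.092, adjusted p = 0.000479). WT lay with E3-KO for Etv4 at a mean of 42.9 FPKM, and E1-KO lay above E2-KO at 147 FPKM. Its relative Etv5 was at 116 and 101 and 119.5 and 105 FPKM (0.05) and was not called. Of the inhibitors that ERK induces, Dusp6, a phosphatase of ERK, measured 8.39 and 4.57 FPKM in E2-KO against 2.42 and 2.13 FPKM in E3-KO (-1.15), and Spry4 measured 7.59 and 3.25 and 1.32 and 1.86 FPKM (-1.23). The E2-KO samples were wide apart for both, and their calls were lost without a replicate, Dusp6 in 1 of the 4 cases and Spry4 in 3. Spred1 was also lower, and Phlda2 was higher (0.71). Without E3-KO replicate 2 the list had 3 called lower, and 3 when the 4 samples were fitted alone.

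Of 11 tested genes of WNT signalling 3 were lower (27.3%, against 7.67% of all genes), Apcdd1 (-0.89), Ccnd1 (-0.62) and Notum (-0.59), and 1 was higher, Amotl2 (0.40). Apcdd1, an inhibitor of WNT at the membrane, measured 5.88 and 5.53 FPKM in E2-KO against 3.17 and 2.16 FPKM in E3-KO. Ccnd1, cyclin D1, measured 39.4 and 37.7 and 22.2 and 27.7 FPKM. Without E2-KO replicate 1 or with the 4 samples fitted alone, 1 of the list was called lower. The calls of Amotl2 and Notum were lost with 3 of the 4 replicates left out and that of Ccnd1 with 2. In the Nodal list, Inhbb, an activin subunit, was lower in E3-KO, at 13.1 and 9.303 FPKM in E2-KO against 5.68 and 5.05 FPKM (-0.92, SE 0.158, adjusted p = 0.00664), and Pcsk6, a protease that matures Nodal, was higher (0.47), by a call that 3 of the 4 left-out replicates removed. Id2, an inhibitor of helix-loop-helix factors induced by BMP, was higher, at 2.07 and 2.56 FPKM in E2-KO against 6.92 and 5.65 FPKM in E3-KO (1.13, SE 0.155, limma-trend adjusted p = 0.00251). It was the 1 called gene of 14 in the BMP list (7.14% higher, against 5.64% of all genes). In the LIF list, Pramel7, a target of STAT3, was higher (8.32 and 8.54 and 18.6 and 17.3 FPKM, 1.01), and Socs2 (-0.62) and Pim3 (-0.43) were lower by calls that 3 of the 4 left-out replicates removed.

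Pluripotency genes were mostly uncalled. Of 20 tested naive genes outside chromosome 6, 2 were lower in E3-KO (10%, against 7.67% of all genes) and none was higher (against 5.64%). The list's median of -0.07 stood beside -0.08 for all genes. None was higher at an unadjusted p under 0.05 either, and 6 were lower. The share of all genes at that unadjusted threshold was not counted, so the 6 have no background. The 2 were Esrrb, a nuclear receptor of the naive network, at 203 and 195 FPKM in E2-KO against 157 and 147 FPKM in E3-KO (-0.39, adjusted p = 0.03803), and Gbx2, at 5.41 and 2.86 and 1.59 and 1.78 FPKM (-0.89). The call of Esrrb was lost with each of the 4 replicates left out and that of Gbx2 with 3 of them. Pou5f1, which encodes OCT4, measured 553 and 445 FPKM in E2-KO against 482 and 433 FPKM in E3-KO (-0.12), and Klf4 measured 68.9 and 81.2 and 82.3 and 77.7 FPKM (0.10), both with overlapping groups. In the formative and primed list, 2 of 14 were lower (14.3%, against 7.67% of all genes), Etv4 and Sox4. Otx2 was uncalled at 3.53 and 4.26 and 5.22 and 5.89 FPKM (0.42, limma-trend adjusted p = 0.0711). Of the 16 tested DNA methylation enzymes outside chromosome 6, 0 were called by limma-trend. At an unadjusted p under 0.05, 3 were lower and 0 higher, again without a share of all genes.

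**Figure D3:**
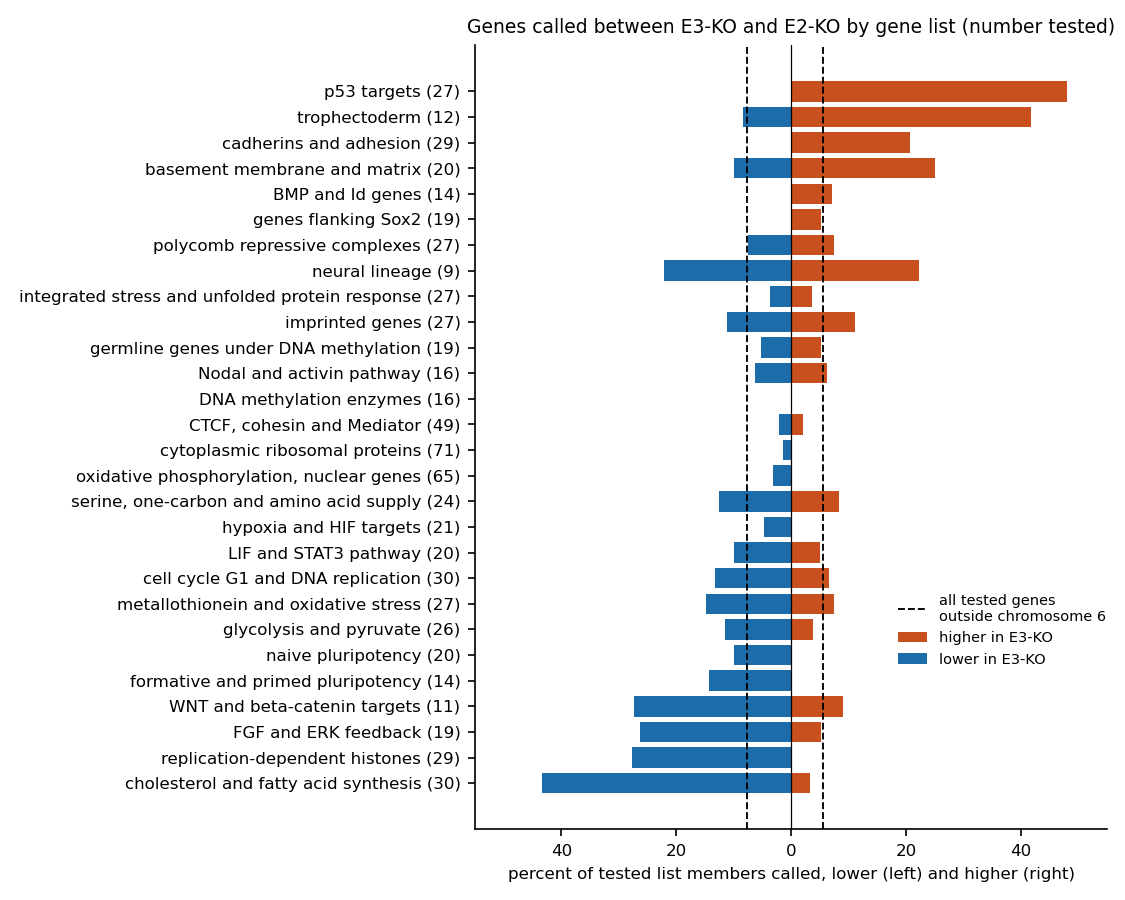
Percentage of the tested members of each gene list called higher (right) or lower (left) in E3-KO, genes of chromosome 6 left out, with the number tested in brackets and dashed lines at 5.64% higher and 7.67% lower for all tested genes. p53 targets extend furthest to the right at 48.1% and cholesterol and fatty acid synthesis furthest to the left at 43.3%.

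Several genes of trophectoderm, the outer layer of the blastocyst, were higher in E3-KO. Of 12 tested, 5 were higher (41.7%, against 5.64% of all genes), 1 was lower (8.33%, against 7.67%) and 6 were not called, with a median of 0.69. Keratins and a cadherin were among the 5. Krt19 measured 1.08 and 2.55 FPKM in E2-KO against 10.6 and 7.97 FPKM in E3-KO (1.91, SE 0.255, adjusted p = 0.00223). Its partners in simple epithelia, Krt8 and Krt18, measured 9.27 and 7.78 and 3.05 and 2.82 FPKM in E2-KO against 20.5 and 14.8 and 12.3 and 7.14 FPKM in E3-KO (0.96 and 1.41). The E2-KO samples were below the E3-KO samples for all 3, and the WT means were 10.8 FPKM for Krt19, 7.29 FPKM for Krt8 and 9.82 FPKM for Krt18. Thus WT lay with E3-KO for Krt19 and Krt18 and with E2-KO for Krt8. Cdh3, P-cadherin (0.88), and the transcription factor gene Tfap2a (0.74) were the others called higher, and Rhox6 was lower (-1.09). The call of Cdh3 was lost with 3 of the 4 replicates left out and that of Rhox6 with 2. Gata3 was uncalled at 2.49 and 4.12 FPKM in E2-KO against 8.86 and 4.84 FPKM in E3-KO (0.84, adjusted p = 0.0746), and Cdx2, a defining factor of trophectoderm, was at 0.0317 and 0.0695 FPKM in E2-KO against 0.723 and 0.0312 FPKM in E3-KO. The 9 trophoblast markers in the files summed to 27.6 and 36.1 FPKM in E2-KO and to 48.4 and 40.2 FPKM in E3-KO. Their sums were 42.3 and 45.1 FPKM in WT, near those of E3-KO, and 28.8 and 25.8 FPKM in E1-KO. Both E3-KO samples were above both E2-KO samples for 5 of the 9 (Elf5, Gata3, Hand1, Krt7 and Tfap2c), and the samples of the other 4 overlapped. Of these 5, Elf5, Hand1 and Krt7 were near the floor, at 0.5401 FPKM or less in every E2-KO and E3-KO sample. How many of all genes were ordered this way was not counted, so the 5 of 9 cannot be read as a result about these markers. The part of trophoblast cells in these results was not tested. In bulk RNA, more cells of a type and more RNA per cell cannot be told apart.

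Of 29 tested adhesion genes, 6 were higher (20.7%, against 5.64% of all genes), with none lower and a median of 0.22. At an unadjusted p under 0.05, 11 were higher and 0 lower, a threshold at which all genes were not counted. The count was 4 without E3-KO replicate 2 and 11 with the correction for length and GC content. Itgav, the integrin alpha V chain, measured 9.44 and 14.3 FPKM in E2-KO against 25.6 and 25.9 FPKM in E3-KO (1.08, SE 0.162, adjusted p = 0.00361). Dsp, desmoplakin, which anchors keratin at desmosomes, measured 4.57 and 4.89 and 9.14 and 9.101 FPKM (0.82), and the groups of neither gene overlapped. Snai1, a repressor of E-cadherin, was higher as well, at 1.699 and 1.57 and 4.67 and 4.48 FPKM (1.08), while Cdh1, E-cadherin itself, was uncalled at 274 and 322 and 317 and 337 FPKM (0.14). Of 20 tested genes of the basement membrane and matrix, 5 were higher (25%, against 5.64% of all genes) and 2 lower (10%, against 7.67%). Tinagl1, a matrix glycoprotein, measured 3.09 and 4.33 FPKM in E2-KO against 13.4 and 9.49 FPKM in E3-KO (1.40), and the laminin genes Lama3 (0.98) and Lama5 (0.67) were higher. Sulf1, an enzyme that trims sulfate from heparan sulfate chains, fell from 5.93 and 5.09 FPKM in E2-KO to 1.14 and 1.44 FPKM in E3-KO (-1.51, SE 0.153, adjusted p = 0.000913), with WT at a mean of 9.22 FPKM. The 4 E2-KO and E3-KO samples alone gave 3 higher and 1 lower in that list.

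Among 8 tested mesendoderm and endoderm genes, Gata6 and Sparc were higher in E3-KO (25%, against 5.64% of all genes). Gata6, a factor of primitive endoderm, was low throughout, at 0.392 and 0.597 FPKM in E2-KO against 3.72 and 1.76 FPKM in E3-KO (1.28, SE 0.238, adjusted p = 0.00935). Sparc, a matrix protein abundant in parietal endoderm, measured 133 and 149 and 231 and 199.5 FPKM (0.61). The 9 primitive endoderm markers in the files summed to 1.95 and 2.53 FPKM in E2-KO and to 6.98 and 4.26 FPKM in E3-KO. Both E3-KO samples were above both E2-KO samples for 5 of the 9 (Cubn, Gata6, Hnf4a, Pdgfra and Sox17) and below them for Foxa2, which was at 0 in both E3-KO samples. Cubn, Pdgfra, Sox17 and Foxa2 were near the floor, at 0.6408 FPKM or less in every E2-KO and E3-KO sample. The share of all genes ordered this way was not counted, so these counts cannot be read as a result about the markers. The call of Gata6 was lost without E2-KO replicate 1. The part of such cells in the values of Gata6 and Sparc was likewise not tested. In the neural list 2 of 9 were higher (22.2%, against 5.64% of all genes), Neurod1 (1.18 and 1.32 and 5.79 and 4.79 FPKM, 1.48) and Nes (0.54). Another 2 were lower (22.2%, against 7.67%), Gbx2 and Msi1 (-0.49). Of these 4 calls, Neurod1 was the 1 that held with each replicate left out. Germline genes held 1 higher (5.26%, against 5.64%), Tex101, and 1 lower (5.26%, against 7.67%), Mov10l1, among 19. Mov10l1, a helicase of the piRNA pathway, measured 7.05 and 5.296 and 2.45 and 2.22 FPKM (-1.09).

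Imprinted genes were split, with 3 of 27 higher (11.1%, against 5.64% of all genes) and 3 lower (11.1%, against 7.67%) outside chromosome 6. Sfmbt2, expressed from the paternal allele in trophoblast, measured 3.57 and 4.53 FPKM in E2-KO against 10.7 and 12.3 FPKM in E3-KO (1.31, SE 0.180, adjusted p = 0.00255). Nnat fell from 10.01 and 7.48 to 2.32 and 3.33 FPKM (-1.35), and Rtl1, a paternally expressed gene of the Dlk1-Dio3 domain, from 10.5 and 8.77 to 3.601 and 3.76 FPKM (-1.18). Samples of the lines did not overlap for these genes. Rtl1 has an antisense partner, and reads of the pair cannot be told apart where counting does not use strand, which is not given in the sources used here. Phlda2 and Dio3 were also higher (0.71 and 0.69) and Trappc9 lower (-0.55), the last 2 genes being named after their values were seen.

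Some replication-dependent histone genes were lower in E3-KO, on unsteady calls. Of 29 tested, 8 were lower (27.6%, against 7.67% of all genes), none was higher, and the median was -0.51. At an unadjusted p under 0.05, 15 were lower and 1 higher, a threshold at which all genes were not counted. Hist1h4k, an H4 gene, measured 849.9 and 717 FPKM in E2-KO against 205 and 286 FPKM in E3-KO (-1.69, SE 0.163, adjusted p = 0.000796), and Hist1h4c measured 384 and 354 and 255 and 122 FPKM (-1.06). The count was 1 without E2-KO replicate 1, 15 without E2-KO replicate 2, 10 without E3-KO replicate 1, 2 without E3-KO replicate 2 and 1 with the 4 samples fitted alone. These genes are near-identical in sequence, so the values of single members are uncertain. They are also short, with a median transcript of 618 bases, and short genes tended lower in E3-KO as a whole: the 2649 shortest tested genes had a median difference of -0.14 and the 2646 longest of 0.01. Nuclear genes of oxidative phosphorylation had 2 of 65 lower (3.08%, median -0.17) and ribosomal protein genes 1 of 71 (1.41%, median -0.15). Both shares were below the 7.67% of all genes. With median transcripts of 1046 and 1106 bases, the medians of these lists lay near the value of the shortest genes. Without E3-KO replicate 1 the counts were 11 lower in each of these 2 lists, and without E2-KO replicate 2 they were 11 and 3. The part of transcript length in these results was not tested beyond the correction, under which 8 histone genes were called lower.

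Of 30 tested cell cycle genes, 4 were lower (13.3%) and 2 higher (6.67%). For this list and the others of this paragraph, the shares of all genes were 7.67% lower and 5.64% higher. Pcna, the sliding clamp of replication, measured 239.8 and 201 FPKM in E2-KO against 151 and 141 FPKM in E3-KO (-0.59, SE 0.113, adjusted p = 0.0107), and Ccne1, cyclin E1, measured 116 and 88.1 and 51.4 and 73.1 FPKM (-0.71). Cdkn1a, given with the p53 targets, was among the higher. The calls of Ccne1 and Cdkn1a were each lost with 2 of the 4 replicates left out. Without E2-KO replicate 1 the list had 1 called gene, which was lower, and with the 4 samples fitted alone all 6 calls were lost. In the list of oxidative stress genes, Gsto1, a glutathione transferase, measured 30.5 and 27.5 FPKM in E2-KO against 120.3 and 59.3 FPKM in E3-KO (1.52, SE 0.259, adjusted p = 0.00663). The E3-KO samples lay far apart, and both were above the 6 other samples. The list had 2 higher (7.41%) and 4 lower (14.8%) of 27, and both counts varied with the replicate left out. In amino acid supply, Slc7a3, a transporter of cationic amino acids, was lower (24.4 and 19.7 and 10.9 and 10.2 FPKM, -0.99). Gldc, of the glycine cleavage system, was higher (0.47). That list had 2 higher (8.33%) and 3 lower (12.5%) of 24, and both counts varied with the replicate left out. The integrated stress list had 1 higher (Sesn2) and 1 lower (Xbp1, -0.45) of 27, 3.7% each. Polycomb genes had 2 higher (7.41%), Kdm2b (0.49) and Jarid2 (0.43), and 2 lower (7.41%), Cbx7 (-0.55) and Cbx2 (-0.39), of 27. Of these calls, Cbx2 was lost with each of the 4 replicates left out, Cbx7 and Jarid2 with 3 and Kdm2b with 2, and both lower calls were lost under the 3 other scalings and the correction for length and GC content. The list of CTCF, cohesin and Mediator had 1 higher (2.04%) and 1 lower (2.04%) of 49. Med12l was the higher (1.16 and 0.953 and 5.75 and 3.91 FPKM, 1.49). Med1 was the lower (-0.41), by a call lost with most replicates left out in turn. Hypoxia genes had Pdk1 lower (-0.61) of 21 (4.76%), a call also lost with most replicates left out in turn. The 3 tested genes of the 2-cell-like state had 0 called, also at an unadjusted p under 0.05.

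Chromosome 6 stood apart from the other chromosomes. Of its 536 tested genes, 322 were called (60.1%), 310 lower in E3-KO (57.8%) and 12 higher (2.24%). On the other autosomes and the X chromosome, the share called lower ranged from 4.99% on chromosome 12 to 12.3% on the X. The Y chromosome, with 6 tested genes, was left out of that range. Genes of chromosome 6 were kept apart with this shift already known, so these counts are a description. Over its 402 genes that averaged 5 FPKM or more, the median difference of E3-KO from E2-KO on log2(FPKM + 0.1) minus that of the other chromosomes, the relative median, was -0.600. Each of the 4 pairs of an E3-KO with an E2-KO sample gave between -0.564 and -0.597. The 19 other chromosomes with at least 20 such genes had relative medians between -0.033 (X) and 0.054 (2), and the Y chromosome, with 4 such genes, had -0.199.

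**Figure D4:**
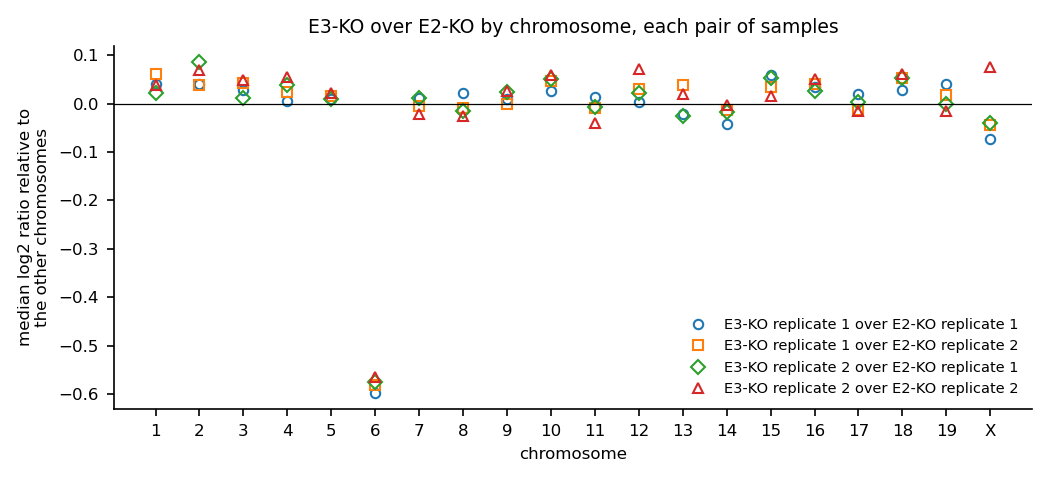
Median log2 ratio of E3-KO to E2-KO for the genes of each chromosome relative to all other chromosomes, with 1 symbol for each of the 4 pairs of samples. Chromosome 6 lies between -0.564 and -0.597 in all 4 pairs.

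The shift ran along the whole chromosome. In 8 successive stretches of 50 or 51 genes in gene order, the relative median was between -0.447, from Exoc4 to Snx10, and -0.695, from Mrpl19 to H1fx. Of the 402 genes, 382 (95%) were below the median of the other chromosomes. The middle of the distribution, between the lower and upper quartiles, spanned -0.753 to -0.360 on chromosome 6 and -0.174 to 0.188 elsewhere. Set against WT, the same genes had a relative median of 0.037 in E2-KO, 0.039 in E1-KO and -0.530 in E3-KO, and these 3 values share the WT samples.

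**Figure D5:**
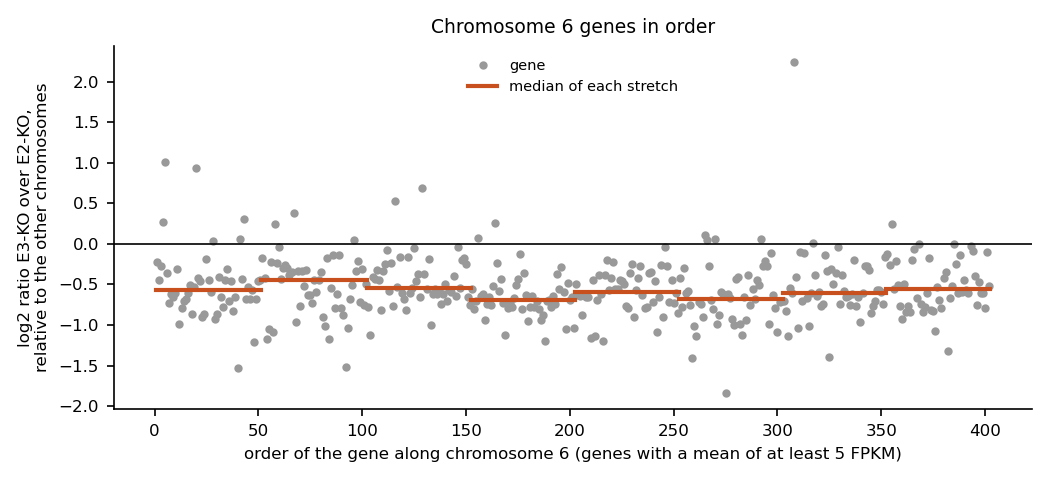
Log2 ratio of E3-KO to E2-KO of 402 chromosome 6 genes in their order along the chromosome, relative to the median of the other chromosomes, with the median of 8 successive stretches as bars. The bars lie between -0.447 and -0.695 from end to end.

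Single genes of chromosome 6 ranged widely around that shift. Tmem40 measured 13.2 and 15.04 FPKM in E2-KO against 4.45 and 2.97 FPKM in E3-KO (-1.70, SE 0.170, adjusted p = 0.000863). Smo, the membrane transducer of Hedgehog signalling, measured 11.3 and 12.6 and 3.29 and 4.41 FPKM (-1.43), and Jagn1, a protein of the endoplasmic reticulum, 23.99 and 22.2 and 8.65 and 7.58 FPKM (-1.40). These were well below the chromosome's median, as was Atp6v0e2, a subunit of the vacuolar proton pump (-1.31). The lines did not overlap for these genes, as the naming rule required. Nanog, a core pluripotency factor, measured 524 and 618 FPKM in E2-KO against 435 and 373 FPKM in E3-KO (-0.50, adjusted p = 0.0308), near the shift of the chromosome, with WT at 467 and 450.4 FPKM. Genes of glycolysis are divided between this chromosome and others. Of the 6 tested members on chromosome 6, 5 were lower (Gapdh, Tpi1, Ldhb, Hk2 and Slc2a3). Of all tested genes of that chromosome 57.8% were lower, so these few genes do not stand out from it. Of 26 elsewhere 3 were lower (11.5%, against 7.67% of all genes outside chromosome 6), Eno3 (-0.83), Slc16a1 (-0.65) and Pdk1. Hk1 (0.55) was the 1 called higher (3.85%, against 5.64%). The calls of Pdk1 and Hk1 were lost with 3 of the 4 replicates left out and that of Eno3 with 2, and 1 gene was called lower under each of the 3 other scalings. Gapdh, often used as a reference gene, measured 4547 and 5039 FPKM in E2-KO against 3141 and 2892 FPKM in E3-KO (-0.67).

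Against this shift, 12 genes of chromosome 6 were higher in E3-KO. Dppa3, also called Stella, a factor that shields maternal DNA methylation in the zygote, measured 1.75 and 1.68 FPKM in E2-KO against 6.87 and 9.27 FPKM in E3-KO (1.73, SE 0.203, adjusted p = 0.001504). Its WT mean of 16.5 FPKM was above both lines, and E1-KO lay near E2-KO at 2.25 FPKM. Peg10, an imprinted gene derived from a retrotransposon, measured 23.4 and 21.8 FPKM in E2-KO against 47.96 and 38.1 FPKM in E3-KO (0.89), with WT at a mean of 40.9 FPKM. Tes, a focal adhesion protein, measured 5.47 and 5.59 and 11.4 and 8.82 FPKM (0.76), and Slco1a6, an organic anion transporter, 2.53 and 2.06 and 4.67 and 6.04 FPKM (0.94). Samples of the lines did not overlap for these 4 genes, as the naming rule required. The call of Slco1a6 was lost with 2 of the 4 replicates left out.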

How the data were processed

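Total RNA libraries of the 8 samples were read as paired ends of 150 bases, per the labels' protocols. The submitters' processing notes name Trimmomatic 0.36, TopHat2 2.0.12, Cufflinks 2.2.1 and the build mm9, with no order or settings. The authors deposited 1 list of identifiers and values per sample, taken here as FPKM from those notes and from the values. Read counts and depth are unknown, strand use in counting is not given in the sources used here, and no value could be given a counting error.

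Each list had 18774 rows with 17812 identifiers. Of 660 repeated identifiers, 579 were kept at the row in their own place in chromosome order and 81 were left out, leaving 17731. Symbols (17262 matched) came from a gene name table, and chromosomes from GENCODE M21 on GRCm38. Since the files' build is mm9, gene coordinates are not printed, and promoter coordinates refer to GRCm38.p6.

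limma-trend 3.58.1 in R 4.3.3 was run on log2(FPKM + 1) of genes averaging 1 FPKM or more. All 8 samples were in the fit (4 residual degrees of freedom, group as the term), the test was two-sided, and p-values were Benjamini-Hochberg adjusted. An exact permutation test of 2 against 2 samples could not pass 0.05. The test was first tried on simulated data. Chromosome medians used log2(FPKM + 0.1) and a mean of at least 5 FPKM. Replicate numbers did not pair the samples, since the deviations of same-numbered E2-KO and E3-KO samples correlated at -0.034. Figures used matplotlib 3.10.9.

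The comparison, the gene lists and their members were chosen with earlier results of these data known. Genes were named by a rule. It took Sox2, the 12 highest and 12 lowest called genes outside chromosome 6 with at least 5 FPKM in the higher line and no overlap, 4 of each direction on chromosome 6, up to 4 called genes per list with the largest differences, and up to 3 uncalled members per list. Names outside the rule, such as the further called members of the p53 and cholesterol lists, the genes of glycolysis on chromosome 6 and members of marker lists, were added after their values were seen. Some members of the cholesterol list are counted but not reported here by name. Of the 110 called genes named by the rule, 47 were called in every alternative and 66 with each replicate left out.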

Additional observations from a re-analysis of the deposited data

How the results depend on the processing

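The 1409 genes called outside chromosome 6 became 485 with the 4 samples fitted alone, 391 at an adjusted p under 0.01 and 221 when a log2 difference of 1 or more was also required. For chromosome 6, where 322 genes were called, the same settings gave 179, 178 and 40. Leaving out 1 replicate gave 731 (without E2-KO replicate 1) to 1253 outside chromosome 6 and 227 to 274 on it. The other settings stayed within 1.5 times, between 1053 and 1406 and between 265 and 324. The relative median of chromosome 6 (-0.600) was -0.580 with quantile normalization, -0.443 with all genes above 0, -0.568 with a mean of at least 1 FPKM, -0.559 with a pseudocount of 1, and -0.585 to -0.570 with a replicate left out. Sox2 was not called in any setting, with differences from -0.27 to -0.04. None of the 110 called genes named by the rule changed direction in any setting run, and uncalled genes other than Sox2 and names added later were not followed across settings.

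With the replicate number as a block, 1209 genes were called outside chromosome 6 and 297 on it, and Sox2 had an adjusted p of 0.36 by limma-trend. The numbers did not pair samples (r of deviations -0.034). The correction for length and GC content was chosen after seeing the data. Depth is unknown, so low values such as those of Fgf17 in E3-KO carry an unknown counting error. When a left-out replicate leaves 1 sample in a line, that sample is assumed to vary like the other groups.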
